A study of Mus musculus with 6 samples.

Results

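MicroG3 is the name that the deposited annotation gives to a cluster of 951 cells, out of 51426 annotated cells of the mouse olfactory bulb. Its members were taken by that name alone, but the cluster was chosen with earlier results of these data known. The bulb contains 2 further clusters of microglia, MicroG2 with 2260 cells and MicroG1 with 790 cells, and MicroG3 therefore held 951 of 4001 microglia. The names MicroG1 and MicroG2 are exchanged between the annotation and the marker lists of the study, and the names of the annotation are used throughout. Other names also differ from those of the study, such as the astrocyte cluster Astro3, the ensheathing cell cluster OEC3 and the neuronal clusters N5, N8 and N9. The 3 clusters were separated by the authors on the expression of the same genes that are described below, so every comparison between clusters is a description and carries no test.

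All mice were of the strain C57BL/6NJ and 14 weeks of age. The study describes controls as naive mice. Naris occlusion was a plug in the nostril of 1 side, and the occluded side was the deprived sample. The study also names the open side as a control. Trained mice were deprived of water and learned to discriminate odors for a water reward, so the training contrast also holds the water deprivation. Both manipulations lasted 6 weeks. Each of the 3 groups had 2 libraries made from pooled mice, males in replicate 1 and females in replicate 2, so that a group holds 1 pool of each sex. Bulbs were dissociated with papain and captured by the 10X Chromium Single Cell 3′ v2 method, in which each captured RNA molecule carries a unique molecular identifier (UMI). The authors state that they removed doublets. MicroG3 contributed between 99136 and 215018 UMIs per library, 818992 in all. Among annotated cells 2956 share a barcode with a cell of another library, 58 of them in MicroG3.

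Microglia are the resident macrophages of the brain. They arise from the yolk sac, survey the tissue with motile processes that carry purinergic and chemokine receptors, and keep their identity through signals such as CSF1 and TGF-beta. Their resting, or homeostatic, program includes Siglech, P2ry12, Tmem119 and Cx3cr1, whereas injury and enzymatic dissociation are both known to induce immediate-early genes such as Fos and Jun in them. Malat1, Neat1 and Xist are long noncoding RNAs that remain in the nucleus, while mitochondrial transcripts and the mRNAs of ribosomal proteins lie outside it.

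MicroG3 carried the defining transcripts of microglia, at lower levels than the other 2 clusters. Siglech, which encodes a sialic acid-binding lectin and is the marker of the cluster, was 325 and 363 CPM (UMIs of the gene relative to all UMIs of the cluster in that library, scaled to 1000000) in the control libraries, 293 and 358 CPM in the occlusion libraries and 358 and 391 CPM in the trained libraries. All 6 values lie below the mean of MicroG2 (905 ± 123 CPM, SD, n = 6 libraries) and of MicroG1 (765 ± 67.4 CPM). With the cells of all libraries pooled, MicroG3 was still rank 3 of 38 clusters for Siglech at 350 CPM, above macrophages (106 CPM), monocytes (63.6 CPM) and the endothelial cluster EC1 (2.78 CPM), which should lack the gene. For 13 of 23 homeostatic genes MicroG3 was among the 3 highest clusters, and for 17 of 23 it exceeded both macrophages and monocytes. Csf1r and Fcrls were among the exceptions, at 866 and 872 CPM in MicroG3 against 1085 and 1245 CPM in macrophages. The genes of border macrophages summed to between 70.6 and 137 CPM per library in MicroG3, against 13578 CPM in the macrophage cluster, and Cd163, Cd209f, Clec10a, F13a1 and Lyve1 were at 0. The genes of monocytes and dendritic cells summed to between 292 and 726 CPM, against 28507 CPM in the monocyte cluster.

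The cells of MicroG3 were shallow. Their median was 748 UMIs and 401 genes per cell, against 1847 UMIs and 959 genes in MicroG2 and 2336 UMIs and 1106 genes in MicroG1. The library medians of MicroG3 ranged from 662.5 to 841.5 UMIs, and single cells from 520 to 4927 UMIs. Of the 951 cells, 478 held fewer than 750 UMIs and 51 held 1500 or more.

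Shallowness was accompanied by an altered composition of the RNA. Malat1 made up a median of 0.137% of the UMIs of a MicroG3 cell, against 2.80% in MicroG2 and 2.85% in MicroG1. No Malat1 UMI was found in 322 MicroG3 cells (33.9%), whereas this was the case for 18 cells (0.796%) of MicroG2 and for 0 cells of MicroG1. By library this share lay between 23.6% and 47.7%. Mitochondrial transcripts took a median of 14.4% of UMIs in MicroG3, against 6.49% and 5.94% in MicroG2 and MicroG1, and transcripts of cytosolic ribosomal proteins took 19.3%, against 12.3% and 13.1%. The library medians of the mitochondrial share in MicroG3 were 17.2% and 15.4% in controls, 12.7% and 12.03% with occlusion and 16.2% and 13.3% after training, so the lowest of them was well above the medians of the other microglia. Some shallow clusters of other cell types also had little Malat1. Its median share was 0.174% in Astro3 (708.5 UMIs), 0.156% in OEC3 (817 UMIs) and 0.283% in EC2 (750.5 UMIs). Their median mitochondrial shares were 23.6%, 18.6% and 17.1%, above that of MicroG3. Malat1 was also low in the shallow neuronal clusters N3 (774 UMIs, 0.131%), N5 (818 UMIs, 0.0847%) and N6 (655 UMIs, 0.174%). The same held for N7 (687 UMIs, 0.158%) and N15 (813 UMIs, 0.158%). The shallow neuronal clusters N8 (879 UMIs) and N9 (720 UMIs) went the other way, with 5.12% and 4.87% Malat1.

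**Figure D1:**
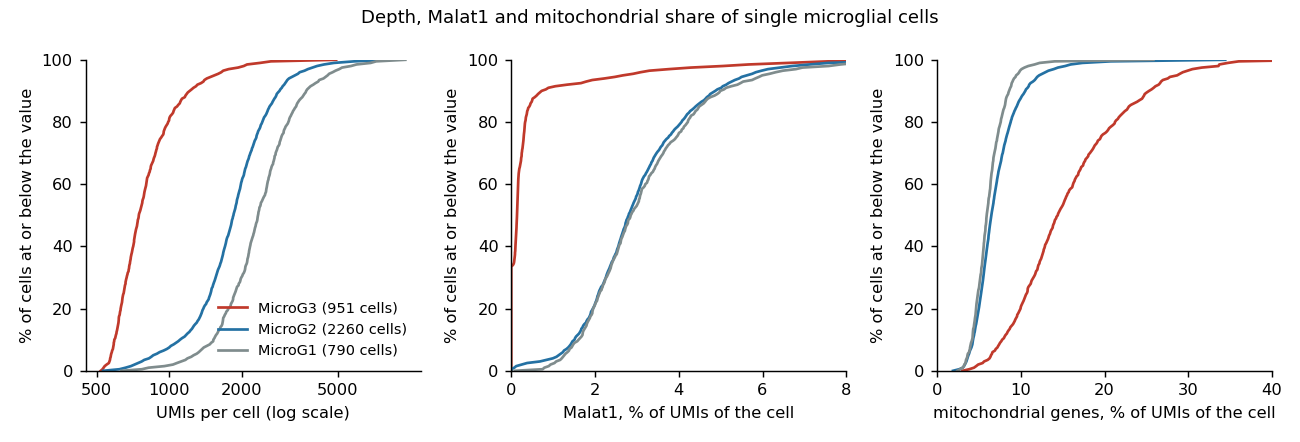
Cumulative share of cells (y axis, %) by UMIs per cell (left, log scale), by the Malat1 share of UMIs (middle) and by the mitochondrial share of UMIs (right) in MicroG3 (red), MicroG2 (blue) and MicroG1 (grey). The MicroG3 curve lies left of the others for UMIs and Malat1 and right of them for mitochondrial transcripts, and 33.9% of the MicroG3 cells start at a Malat1 share of 0.

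Against MicroG2, the homeostatic genes were lower in MicroG3 as a group. Of 1229 genes with a mean of at least 100 CPM over the 3 microglial clusters, 26.9% were higher and 38.7% were lower in MicroG3 in all 6 libraries, and the median log2 ratio was −0.17 with a pseudocount of 5 CPM. A gene could reach this level through MicroG1 or MicroG2 alone, so counts of lower genes describe the genes kept and the summed levels, which use no filter, are given beside them. Against this background, 21 of 22 homeostatic genes at that level were lower in every library and 0 were higher, with a median log2 ratio of −1.53 ± 0.22 (mean and SD of the 6 library medians). The whole list of 23 genes summed to 11314 ± 889 CPM in MicroG3, 29119 ± 2277 CPM in MicroG2 and 25934 ± 1378 CPM in MicroG1. Gpr34, a lysophospholipid receptor, was between 477 and 809 CPM in MicroG3 (log2 ratio to MicroG2 −1.74 ± 0.21), and Csf1r, the receptor for CSF1, was between 727 and 1005 CPM (−1.11 ± 0.19). Neither range reached the mean of MicroG2. Cx3cr1, the fractalkine receptor, and P2ry12, the receptor for extracellular ADP, both named after their values were seen, had ratios of −2.44 and −2.22.

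The transcription factors of microglia were also lower in MicroG3. The whole list of 14 summed to between 1323 and 1797 CPM in MicroG3, between 4252 and 4923 CPM in MicroG2 and between 5208 and 6309 CPM in MicroG1, so that MicroG1 was the highest. The 10 kept at a mean of 100 CPM over the clusters, several of them with few UMIs in MicroG3, were lower in MicroG3 than in MicroG2 in every library, with a median log2 ratio of −1.49 ± 0.24. Maf, a basic leucine zipper factor, was 94.0 and 121 CPM in controls, 121 and 170.3 CPM with occlusion and 149 and 168 CPM after training, against 515 ± 66.8 CPM in MicroG2 and 419 ± 34.4 CPM in MicroG1. Maf was thus low in each MicroG3 library, with a ratio to MicroG2 of −1.89 ± 0.32. The ratios of Irf8 (−1.48 ± 0.23) and Mef2c (−1.17 ± 0.18) were nearer to 0.

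Immediate-early and stress genes were low against both clusters. These 18 genes had a median log2 ratio of −2.05 ± 0.39 to MicroG2, with 15 lower and 0 higher in all libraries. Their median to MicroG1 was −4.79 ± 0.36, with 18 lower in all libraries. Of all 1229 genes, 38.7% were lower in all libraries against MicroG2 and 35.6% against MicroG1. The whole list of 28 genes, those under 100 CPM included, summed to 933 ± 196 CPM in MicroG3, 4361 ± 386 CPM in MicroG2 and 22355 ± 1702 CPM in MicroG1, so MicroG1 and MicroG3 stood at opposite ends. Jun, a subunit of the AP-1 factor, was 94 and 32 CPM in controls, 30 and 85 CPM with occlusion and 84 and 88 CPM after training, against 729 ± 166 CPM in MicroG2 and 3550 ± 292 CPM in MicroG1. Zfp36, which encodes an RNA-binding protein that speeds the decay of AU-rich mRNAs, was between 0 and 32 CPM in MicroG3, 201 ± 15.2 CPM in MicroG2 and 924 ± 75.6 CPM in MicroG1. Fos had a log2 ratio of −2.01 to MicroG2 and −5.80 to MicroG1, and Junb of −2.92 and −5.64. Nfkbiz was at 0 in every MicroG3 library. Among all genes of at least 100 CPM that were lower in every library, the lowest ratios to MicroG2 after Jun (−3.41) and Zfp36 (−3.39) were those of Pld1 (−3.35), a phospholipase, Socs3 (−3.28), an inhibitor of cytokine signalling, Git2 (−3.16), and Mertk (−3.10), a receptor for dying cells. Few UMIs in MicroG3 stand behind these ratios, so their size depends on the pseudocount. Per library Pld1 had 0 to 10 UMIs, Socs3 0 to 4, Git2 0 to 6 and Mertk 0 to 12.

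Effector genes of microglia were reduced less. Genes of the complement, Fc receptor and TREM2 pathways had a median log2 ratio of −0.81 ± 0.13 to MicroG2, and 17 of 19 were lower in every library. The complement subunits C1qa (−0.76 ± 0.08), C1qb (−0.50 ± 0.07) and C1qc (−0.77 ± 0.12) ranged from near that median to above it. The 2 genes that were not lower in every library were Gas6, a ligand of MERTK named after its values were seen (−0.14 ± 0.36), and Tyrobp, the adaptor protein of TREM2. Tyrobp was 4245 and 4336 CPM in controls, 4317 and 4250 CPM with occlusion and 3776 and 4134 CPM after training, and 4165 ± 262 CPM in MicroG2, so the 2 clusters overlapped (log2 ratio 0.00 ± 0.05). Lysosomal genes and cathepsins had a median of −0.82 ± 0.11, with 19 of 20 lower in every library. Cathepsin D (Ctsd) had −0.86 ± 0.08, and the cathepsin inhibitor Cst3, at 58141 ± 5460 CPM in MicroG3, had −0.26 ± 0.10.

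Genes that mark disease-associated microglia included some that were higher and some that were lower, as did the 1229 genes as a whole, with 26.9% higher and 38.7% lower in every library. Of 13 above 100 CPM, 2 were higher and 6 were lower in every library, and the summed level of the whole list of 22 genes, 38759 ± 2523 CPM, was near the 41385 ± 2936 CPM of MicroG2. Apoe, a lipid carrier made by several glial types, was between 10027 and 15059 CPM in MicroG3 and 9038 ± 1474 CPM in MicroG2 (log2 ratio 0.49 ± 0.28), and Fth1, the ferritin heavy chain, had a ratio of 0.53 ± 0.08. Of 13 genes of the actin cytoskeleton 3 were higher and 3 were lower in every library, and Tmsb4x, an actin-sequestering peptide, had a ratio of 0.33 ± 0.11. Of 9 antigen presentation genes 5 were lower and 0 were higher in every library, and of 8 chemokine and cytokine genes 3 were lower and 0 were higher. The shares that were lower among the disease-associated and chemokine genes were near that of all genes. Only 3 of 19 interferon-stimulated genes reached 100 CPM, of which Ifi27l2a was higher in every library (0.96 ± 0.62).

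Transcripts of ribosomal proteins and of the mitochondrial genome were higher. Of 83 ribosomal protein genes, 80 were higher and 0 were lower in every library against MicroG2, with a median log2 ratio of 0.57 ± 0.13, and the ratios of Rps29 (0.68 ± 0.19) and Rpl41 (0.72 ± 0.16), 2 of the most abundant, were typical. All 11 mitochondrial genes above 100 CPM were higher in every library, with a median of 1.12 ± 0.13. mt-Atp6, a subunit of ATP synthase, was between 29101 and 36467 CPM in MicroG3 and 14467 ± 1467 CPM in MicroG2.

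**Figure D2:**
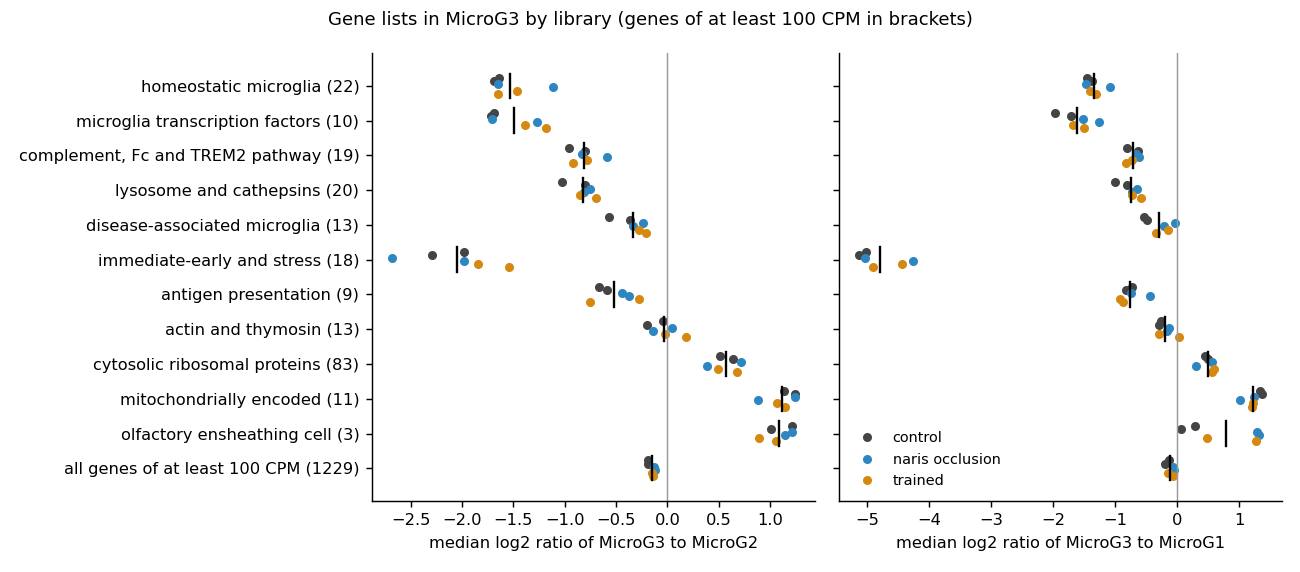
Median log2 ratio of MicroG3 to MicroG2 (left) and to MicroG1 (right) over the genes of each list with at least 100 CPM (number in brackets, y axis), 1 point per library colored by condition, the bar being the mean of the 6 libraries. Homeostatic genes lie at −1.53 against MicroG2, immediate-early genes at −2.05 against MicroG2 and −4.79 against MicroG1, and mitochondrial genes at 1.12.

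Of 10 nuclear noncoding RNAs listed 8 were in the table, and Malat1 and Neat1 reached a mean of 100 CPM over the clusters. Malat1, by far the most abundant, was low. It was 4491 and 3198 CPM in the control libraries of MicroG3, 3339 and 8491 CPM with occlusion and 5204 and 3320 CPM after training, against 28762 ± 3167 CPM in MicroG2. The second occlusion library was the highest, and it too was far below MicroG2 (log2 ratio over libraries −2.71 ± 0.61). Neat1 was at 0 in 2 libraries and below MicroG2 in 5 of 6, at 91.8 ± 14.9 CPM in MicroG2, whereas the second occlusion library, at 111 CPM, was above that mean. Xist, which is transcribed from the inactive X chromosome and is informative in the female libraries alone, was 162, 443 and 144 CPM there in MicroG3, against 1803, 1777 and 2175 CPM in MicroG2. It was 0 in the male libraries, where the Y-linked Ddx3y was detected, so the labels of the pools and the cluster's RNA did not conflict. Meg3, another noncoding RNA of the list and one abundant in neurons, was higher in 5 of 6 MicroG3 libraries (1.07 ± 0.65), and Snhg11 in 4 of 6 (0.61 ± 0.74).

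Among the members, Malat1 separated a minority. In 83 of 951 cells (8.73%) it made up 1% of UMIs or more, as it did in 95.9% of MicroG2 and 97.6% of MicroG1 cells. These cells were counted 8 and 7 times in the control libraries, 4 and 24 times with occlusion and 30 and 10 times after training. Their median depth was 826 UMIs, close to the 741 UMIs of the other 868 members. Pooled over libraries, the 83 cells had 535.9 CPM of Siglech against 330.3 CPM in the 868, and 324 against 44.7 CPM of Jun. Their homeostatic genes summed to 19356 against 10340 CPM, their mitochondrial share was 9.23% against 15.0% in the median cell, and Xist in the female libraries was 1829 against 72.6 CPM. On each of these measures the 83 cells lay nearer to MicroG2 than the other members did. Tyrobp was in the other order, 2979 CPM in the 83 cells and 4253 CPM in the 868.

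MicroG3 also held more RNA of other cell types than MicroG2. Marker genes of neurons summed to between 979 and 1338 CPM per library, against 378 to 699 CPM in MicroG2, and were higher in 6 of 6 libraries, a log2 ratio of 1.09 ± 0.21. The ratios of the summed levels were 1.55 ± 0.35 for olfactory sensory neurons, 1.12 ± 0.15 for olfactory ensheathing cells, the glia that wrap olfactory axons, 1.29 ± 0.22 for the oligodendrocyte lineage and 0.82 ± 0.12 for astrocytes, again with 6 of 6 libraries higher in each. Mural and mesenchymal markers were also higher in 6 of 6 libraries (1.22 ± 0.62 and 1.37 ± 0.42), at no more than 202 and 706 CPM in any library, and endothelial markers were not (0.01 ± 0.15). Rtp1, Tagln, Col3a1 and Cdh5 were at 0 in these lists. Neutrophil markers summed to 31.9 to 93.7 CPM and lymphocyte markers to 8.08 to 341 CPM. Retnlg, Cxcr2, Mmp9, Cd3d, Cd3e, Gzma, Ms4a1, Ms4a4b and Nkg7 were at 0. The highest lymphocyte sum, in the second occlusion library, included 39 UMIs of Ccl5, which is also on the chemokine list. Ccl5 had 16 UMIs in the second trained library and 1 to 4 in each other library.

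Abundant transcripts of other cells led the genes that were higher in MicroG3 than in MicroG2 in all 6 libraries. Ptgds, prostaglandin D synthase (1.62 ± 0.58), S100a5, a calcium-binding protein of sensory neurons (1.58 ± 0.34), and Gng13, a G protein subunit of sensory neurons (1.55 ± 0.45), had the highest ratios among these genes. The hemoglobin genes Hba-a2, Hbb-bs and Hba-a1 had higher mean ratios, of 2.28, 1.98 and 1.92, but not in every library. Next among the genes higher in all 6 libraries were Mt3, S100b, Mt2, Cpe, Mbp, Apod, Pcsk1n, Pcp4 and Aldoc, from 1.43 for Mt3 to 1.299 for Aldoc. Mbp, a myelin protein, was between 1533 and 2374 CPM in MicroG3, and 767 ± 122 CPM in MicroG2. In the clusters where they were highest the same lists summed to 14538 CPM for neurons, 40085 CPM for sensory neurons and 22191 CPM for oligodendrocytes, so MicroG3 held only a small part of those levels. A high level of S100a5 was not particular to MicroG3. Pooled over libraries it was 1464 CPM in MicroG3, and 1528, 1319 and 1081 CPM in the shallow clusters Astro3, OEC3 and EC2. The deeper clusters Astro1, OEC4 and EC1 had 410, 393 and 462 CPM. Of the shallow neuronal clusters, N3 and N8 were lower than MicroG3, at 722 and 860 CPM. The part of RNA from other cells in the ratios of microglial genes was not tested.

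Siglech was found in a smaller share of MicroG3 cells than of the cells of either other cluster also at one depth. Each cell was thinned at random to 500 UMIs, which removed no member. MicroG3 cells then had 294.0 ± 3.66 genes (SD over 6 libraries), MicroG2 cells 335.7 ± 2.86 and MicroG1 cells 332.7 ± 2.62, and the library means of MicroG3, from 290.5 to 299.6, did not overlap those of MicroG2, from 330.8 to 338.4. A UMI of Siglech was found in 16.6% of thinned MicroG3 cells, 35.4% of MicroG2 cells and 33.8% of MicroG1 cells. Before thinning the shares were 25.0%, 77.6% and 82.2%, so MicroG3 was lowest in both, whereas MicroG1 and MicroG2 changed places. In the 2524 cells of EC1, with a median of 1621 UMIs, the thinned share was 0.0396%.

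Cx3cr1, P2ry12, Malat1 and Jun were also found in the smallest share of cells in MicroG3, before and after thinning. Cx3cr1 was found in 13.1% of thinned MicroG3 cells and 62.0% of MicroG2 cells (0.277% in EC1), and P2ry12 in 18.5% and 60.8% (0.238%). Malat1 was found in 53.3% of MicroG3, 98.6% of MicroG2 and 99.9% of MicroG1 cells, and Jun in 3.15%, 25.7% and 73.4%. Tyrobp was found in 82.4%, 84.2% and 83.4%, with library ranges that overlapped, against 90.0%, 98.6% and 98.9% before thinning. Fabp7, a fatty acid-binding protein of ensheathing and astroglial cells, was found in 31.9% of MicroG3 cells and 16.7% of MicroG2 cells, and in 18.03% of EC1 cells, which should lack it. Before thinning its share was 43.4% in MicroG3, 44.0% in MicroG2 and 45.7% in MicroG1, so the share of cells with a UMI showed an excess in MicroG3 at equal depth alone, whereas the CPM over all unthinned cells did as well (log2 ratio to MicroG2 1.29 ± 0.22).

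Unthinned cells of like depth gave the same order for homeostatic and immediate-early genes. Between 750 and 1000 UMIs there were 292 MicroG3 and 111 MicroG2 cells, and between 1000 and 1500 UMIs 130 and 425 cells. At 1500 UMIs or more there were 51 and 1665 cells. Libraries held as few as 9 MicroG2 cells in the first class and 7 MicroG3 cells in the last. The 478 members under 750 UMIs are in none of these classes, since a library held as few as 2 MicroG2 cells there. They are part of a wider class given below. The median log2 ratio of the homeostatic genes was −1.68 ± 0.29, −1.68 ± 0.52 and −1.40 ± 0.31 in the classes compared. That of the immediate-early genes was −2.29, −2.75 and −2.41. The summed levels of the whole lists, which use no filter, had ratios of −1.46, −1.29 and −1.23 for homeostatic genes. For immediate-early genes they were −2.65, −2.49 and −1.77 ± 0.59, nearest to 0 in the deepest cells. Ribosomal protein genes stayed above MicroG2 at 0.88, 0.77 and 0.61. Pooled over libraries, Malat1 was 4502 against 33938 CPM, 6800 against 35672 CPM and 5318 against 27182 CPM. Against MicroG1, only cells of 1500 UMIs or more could be compared in every library, and the homeostatic genes had a ratio of −1.21 ± 0.24 there. A wider class of 500 to 1000 UMIs held 770 MicroG3 and 170 MicroG2 cells, with at least 11 MicroG2 cells per library. Their median depths were 711 and 812.5 UMIs. In it the median log2 ratio to MicroG2 was −1.79 ± 0.30 for homeostatic and −2.42 ± 0.25 for immediate-early genes.

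Transcripts of other cells did not all follow depth in the same way. The log2 ratio of the summed neuronal markers to MicroG2 was 0.78, 0.39 and −0.16 in the 3 classes. That of the oligodendrocyte markers was 0.85, 0.46 and −0.10, and that of the astrocyte markers was 0.79, 0.29 and −0.17. In the deepest class their SDs over libraries were 0.45, 0.82 and 0.59, with 7 to 10 MicroG3 cells per library. The means were thus not above 0 there, but so few cells cannot show that the excess was absent. The lists of sensory neurons (0.88, 0.66 and 0.59) and ensheathing cells (1.16, 1.28 and 0.76) had a mean ratio above 0 in each class, with an SD over libraries of 1.98 for sensory neurons in the deepest class. Mesenchymal markers summed to 430.3 against 237 CPM, 658 against 185 CPM and 649 against 183 CPM. The SD over libraries of the 649 CPM was 509 CPM, so no trend with depth can be read from them. Red blood cell genes were at 52019 ± 83876 against 328 ± 555 CPM in the deepest class, which holds the few cells rich in hemoglobin described below. At 1500 UMIs or more the neuronal list was higher in 2 of 6 libraries and the oligodendrocyte list in 1 of 6. The astrocyte and sensory neuron lists were each higher in 3 of 6 and the ensheathing cell list in 5 of 6. Mbp had a ratio of 0.98, 0.48 and −0.07. The mitochondrial genes stood at 0.81, 0.72 and 0.36. In the same deepest cells Siglech was 244 CPM in MicroG3 and 895 CPM in MicroG2.

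**Figure D3:**
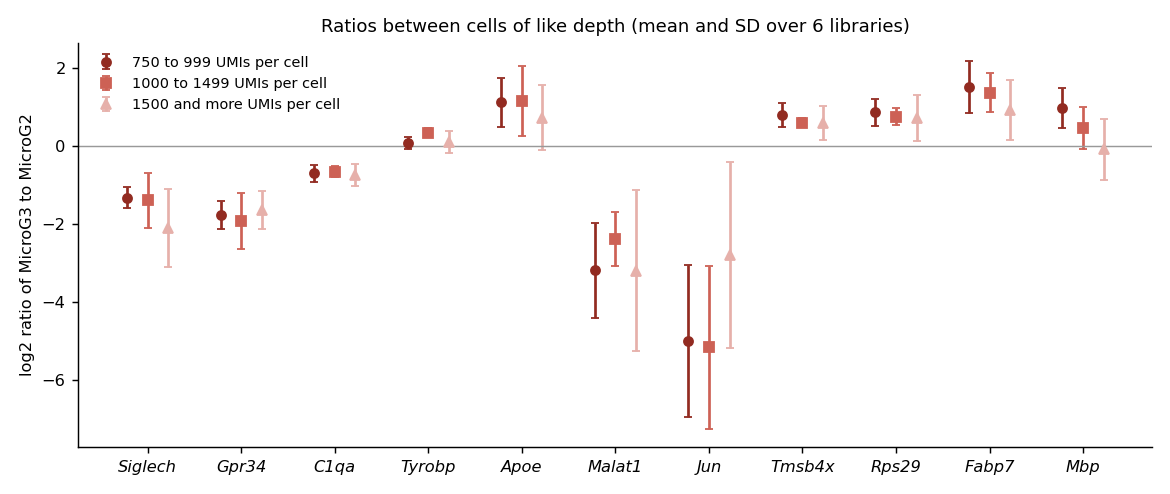
Log2 ratio of MicroG3 to MicroG2 (y axis, mean and SD over 6 libraries) for 11 genes (x axis) between cells of like depth: 750 to 1000 UMIs (circles), 1000 to 1500 UMIs (squares) and 1500 UMIs or more (triangles). Siglech, Gpr34, C1qa, Malat1 and Jun lie below 0 in each class, whereas Mbp falls from 0.98 to −0.07.

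Genes that were low in MicroG3 had longer transcripts. Of the 1229 genes of at least 100 CPM, 1152 were matched by symbol to a coding transcript of GENCODE vM1, on the build NCBIM37. Spearman's rho across these genes between the log2 ratio to MicroG2 and the transcript length was −0.564, and it was −0.542 for the coding length and −0.431 for the length of the 3′ UTR. Genes are not independent, and all of them share the libraries and the 3′ capture, so no p is given. Without ribosomal protein and mitochondrial genes rho with transcript length was −0.525 over 1061 genes. The 288 genes with the lowest ratios had a median transcript length of 2758 bases, followed by 2019, 1332 and 846.5 bases in the successive groups of 288.

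**Figure D4:**
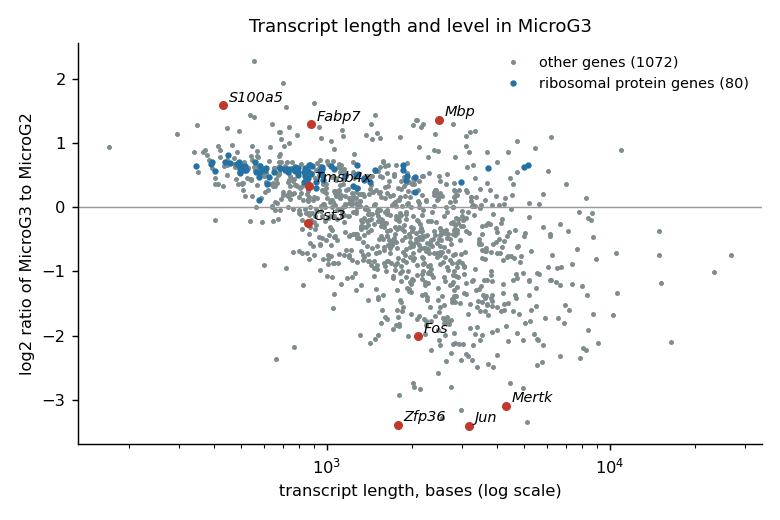
Log2 ratio of MicroG3 to MicroG2 (y axis) by transcript length in bases (x axis, log scale) for 1152 genes, ribosomal protein genes in blue, named genes in red. The cloud slopes downward (rho −0.564), with Jun, Zfp36, Mertk and Fos low and S100a5, Fabp7 and Mbp high.

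AU-rich elements, through which unstable mRNAs such as those of immediate-early genes are degraded, were searched for in the 3′ UTRs as the nonamer TTATTTATT on the transcribed strand. It was present in 25 of the 288 genes with the lowest ratios (8.68%), in 11, 9 and 5 genes of the following groups (1.74% in the last), and in 4.34% of all 1152 genes. Genes were kept by their mean over 3 clusters, so unstable mRNAs that are high in MicroG1 or MicroG2 and nearly absent from MicroG3, such as Zfp36 and Fos, could enter only at the low end, and the contrast between the groups describes the genes kept. The first group also had the longest 3′ UTRs. Per kilobase of 3′ UTR the nonamer occurred 0.0815 times in the first group and 0.0405 times in the last. The shorter element ATTTA, which the nonamer contains, occurred 1.97 and 1.65 times. A match is a description of the sequence and no evidence of use. The sites of 3 genes among the lowest, Zfp36 on chr7:29161970-29161998 (minus strand), Zfp36l1 on chr12:81209154-81209182 (minus strand) and Fos on chr12:86818053-86818081 (plus strand), each in the 3′ UTR, are shown 5′ to 3′ with the nonamer in capitals, in coordinates of NCBIM37.
Zfp36: tatgacgactTTATTTATTgtattaagat
Zfp36l1: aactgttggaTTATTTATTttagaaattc
Fos: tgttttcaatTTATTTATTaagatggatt
The log2 ratios of these genes to MicroG2 were −3.39 for Zfp36, −2.38 for Zfp36l1 and −2.01 for Fos.

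To ask whether the cluster differed between the conditions, its size was compared first. MicroG3 made up 1.48% and 1.89% of annotated cells in controls, 1.40% and 1.66% with occlusion and 2.38% and 2.25% after training. The trained libraries were above the other 4. In edgeR's quasi-likelihood test over the numbers of cells of all 38 clusters the log2 change was −0.14 (SE 0.27, adjusted p = 0.821) for occlusion and 0.46 (SE 0.27, adjusted p = 0.580) for training against control. Between training and occlusion it was 0.60 (SE 0.27, unadjusted p = 0.0380, adjusted p = 0.111). Among the 38 clusters 2.63% passed the test for occlusion, 0% for training and 21.1% between training and occlusion, and MicroG3 was not among those that did in this fit. With the replicate number, which is the sex of the pool, as a block, MicroG3 passed between training and occlusion (0.61, SE 0.23, adjusted p = 0.0274, edgeR), as 1 of 13 clusters called out of 38 in that fit. It also passed, as 1 of 4 clusters, when only nonneuronal cells were counted (0.76, SE 0.27, adjusted p = 0.0353), and it did not pass with TMM on the numbers of cells (0.75, SE 0.21, adjusted p = 0.0861). As a share of microglia MicroG3 was 21.9% and 22.8%, 21.6% and 21.3%, and 29.1% and 23.9%. The exact two-sided permutation p was 0.3333 for each of the 3 differences, the smallest that 2 against 2 libraries can give. Such a share cannot tell more cells of one type from fewer cells of the others.

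S100a5 fell in MicroG3 with naris occlusion. It was 2625 and 1857 CPM in the control libraries, 706 and 264 CPM with occlusion and 1921 and 734 CPM after training. Both occlusion libraries were below both controls, and the second trained library was close to the first occlusion library. S100a5 was the only gene of 1588 tested to pass at an adjusted p under 0.05, that is 0.063% of genes (log2 fold change −2.28, SE 0.40, adjusted p = 0.0462, edgeR's quasi-likelihood test over summed counts), and 92 genes had an unadjusted p under 0.05. With DESeq2 0 genes passed, with 16 at an unadjusted p under 0.05, and S100a5 was not called with library totals as the only scaling in edgeR (adjusted p = 0.0582). When each library was left out, its log2 fold change ranged from −3.12 to −1.76. In MicroG2 the change was −1.75 (SE 0.27, adjusted p = 0.00121), and the difference between the clusters was −0.59 (SE 0.25, adjusted p = 0.998). The 2 libraries of a group are pools of unlike sex, so every p-value here rests on the spread between such pools.

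S100a5 belongs to sensory neurons, and its level in MicroG3 went with that in the whole library. The neuronal cluster N5, which of the 38 clusters had the highest summed level of sensory neuron genes, had 27958 and 25395 CPM of it in controls, 14665 and 9865 CPM with occlusion and 19641 and 24693 CPM after training. Over all annotated cells it was 1250 and 1196, 534 and 207, and 1261 and 753 CPM. The share of MicroG3 cells with a UMI of S100a5 was 59.5% and 61.6%, 29.4% and 13.2%, and 59.5% and 36.4%. In MicroG2 it was 59.0% and 57.6%, 33.5% and 12.2%, and 58.9% and 41.7%, in the same order of libraries. One cell held 135 of the 363 UMIs of the first control library.

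Mitochondrial genes had fold changes below 0 with occlusion, and whether mt-Co1 passed depended on the fit. All 13 tested had a log2 fold change below 0, with a median of −0.36 against 0.01 for all 1588 genes, 9 of them had an unadjusted p under 0.05, and 0 passed after adjustment in the fit over 1588 genes. mt-Co1, a subunit of cytochrome oxidase, was 24010 and 23700 CPM in controls, 18147 and 15994 CPM with occlusion and 26082 and 19536 CPM after training (log2 fold change −0.53, SE 0.11, adjusted p = 0.0918). mt-Co1 did pass with a replicate block (adjusted p = 0.0206), with at least 10 UMIs in every library (0.0412), without a filter (0.00168) and without the 3 cells rich in hemoglobin (0.00571). It did not pass with DESeq2 (1.00), with library totals as the scaling (0.467) or after thinning (0.399). When each library was left out, the log2 fold change of mt-Co1 ranged from −0.61 to −0.49. mt-Atp6 had a change of −0.34 (SE 0.07, adjusted p = 0.0918). The occlusion libraries did not overlap the controls for either gene. In MicroG2 the change of mt-Co1 was −0.35 (adjusted p = 0.997), and the difference between the clusters was −0.23 (SE 0.19, adjusted p = 0.998). The same libraries had the lowest median mitochondrial shares per cell, as given above, and the part of the cells' condition at capture was not tested.

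The microglial lists gave no call under occlusion, where 0.063% of all genes tested were called, so 0 calls in a list of this size is near the background. Of the 19 homeostatic genes tested 0 passed and 0 had an unadjusted p under 0.05. Their median log2 fold change was 0.18, with 16 of 19 above 0, against 815 of all 1588 genes. Of 8 transcription factors 0 passed, 2 had an unadjusted p under 0.05 and 7 were above 0, with a median of 0.43. Siglech had 293 and 358 CPM against 325 and 363 CPM in controls. None of 15 complement, Fc receptor and TREM2 genes, 20 lysosomal genes, 4 immediate-early genes or 84 ribosomal protein genes passed, with medians of 0.06, 0.12, 0.11 and 0.00.

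Training changed 0 of 1588 genes against control (0%) by edgeR at an adjusted p under 0.05, with 56 at an unadjusted p under 0.05, and DESeq2 called 0 as well, with 8 at an unadjusted p under 0.05. The lowest p-values belonged to the hemoglobin genes Hba-a1 and Hbb-bs, described below, and to Hspa8, a constitutive chaperone. Hspa8 was 535 and 654 CPM in controls and 1256 and 902 CPM after training (log2 fold change 0.84, adjusted p = 0.703), and the 2 groups did not overlap. The homeostatic genes had a median change of 0.11 and the mitochondrial genes of −0.14.

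Between training and occlusion 1 gene passed (0.063% of 1588), with 90 at an unadjusted p under 0.05. It was Dynll1, a light chain of dynein, at 781 and 622 CPM after training, 212 and 324 CPM with occlusion and 434 and 452 CPM in controls (log2 fold change 1.40, SE 0.23, adjusted p = 0.0246, edgeR's quasi-likelihood test). The 3 groups did not overlap, with controls in the middle. A UMI of Dynll1 was found in 48.8% and 39.1% of MicroG3 cells after training and in 19.6% and 21.7% with occlusion, so the difference was spread over many cells. MicroG2 had the same contrast (0.94, SE 0.17, adjusted p = 0.0108), and the difference between the clusters was 0.51 (SE 0.27, adjusted p = 1.00). DESeq2 did not call Dynll1 in MicroG3 (adjusted p = 0.184), nor was it called after thinning of the cells (adjusted p = 0.106). S100a5 also passed in this comparison with a replicate block, without a filter and with at least 10 UMIs in every library. It passed without the cells rich in hemoglobin as well, but not with library totals as the scaling, with DESeq2 or after thinning.

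**Figure D5:**
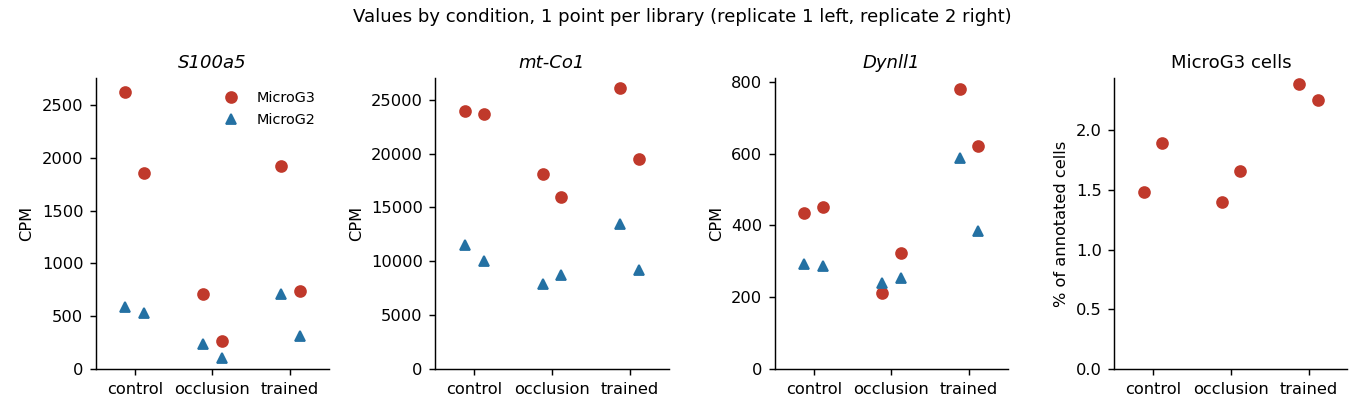
CPM of S100a5, mt-Co1 and Dynll1 in MicroG3 (red circles) and MicroG2 (blue triangles), and the share of MicroG3 among annotated cells (right, %), by condition, 1 point per library with replicate 1 on the left. S100a5 is lowest with occlusion (706 and 264 CPM in MicroG3), and Dynll1 is highest after training (781 and 622 CPM).

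A few cells held most of the UMIs of some genes. Of 5870 hemoglobin UMIs in MicroG3, 5777 came from 3 cells, with 1545 and 1213 UMIs in the first control library and 3019 UMIs in the second occlusion library, while the next cell held 2. Red blood cell genes therefore ranged from 63.8 to 25882 CPM between libraries. The chemokine genes Ccl3 and Ccl4 had 141 UMIs in the second occlusion library, 114 of them in 2 cells, and between 4 and 12 UMIs in each of the other libraries. The change between conditions differed between MicroG3 and MicroG2 for 0.0791% of 6320 genes under occlusion, 0.0475% under training and 0.0475% between training and occlusion (interaction test of edgeR at an adjusted p under 0.05), and all of these genes were hemoglobin genes, Ccl3 or Ccl4. With the replicate number, which is the sex of the pool, as a block, Ccl4 alone was called, under occlusion and between training and occlusion. In the second occlusion library 24 of the 152 members had a Malat1 share of 1% or more.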

How the data were processed

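RNA of dissociated olfactory bulb cells was measured in 6 libraries, 2 per condition. Per the labels and the methods of the study, the authors counted UMIs with Cell Ranger 2.0.0 and clustered the cells with Seurat 2.2.1, regressing out molecules per cell and mitochondrial genes. The submitters' processing notes name the build mm10. The deposited counts are raw. Mitochondrial UMIs were deposited per cell as a fraction, next to the library and the cluster of that cell. In the trained libraries the prefix of the barcodes contradicts the library named in the annotation, and the annotation was followed.

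UMIs were summed over the MicroG3 cells of each library. CPM are relative to that sum, and log2 ratios between clusters used a pseudocount of 5 CPM. Conditions were compared with edgeR 4.0.16 (quasi-likelihood test, TMM, low genes filtered, Benjamini-Hochberg) over 1588 genes, and a change was compared between MicroG3 and MicroG2 as an interaction with library as a block over 6320 genes. Each SE of an edgeR log2 change was worked back from the test, as the absolute change over the square root of its F statistic. R 4.3.3, DESeq2 1.42.0, Python 3.11.15 and pandas 2.3.3 were used, and the tests were checked on simulated data. Replicate numbers mark the sex of the pool and were a block only in an alternative. Named genes were the marker, the most abundant members of each list, the 12 highest and lowest ratios to MicroG2 and up to 6 to MicroG1, and the genes called or of lowest p in each comparison. The members and the lists were chosen with earlier results of these data known, so no pattern here is independent of them. Intervals over cells were not used, since cells are not replicates. The alternatives were another scaling, filter, tool, depth, pseudocount and comparator, and the omission of each library. Leaving out the cells rich in hemoglobin, the interaction against MicroG1 and the use of transcript features in place of protein length were added after the data were seen. Some members of the lists are counted in them but not reported here by name.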

Additional observations from a re-analysis of the deposited data

Results flagged for a closer look

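The change of 5 genes differed between MicroG3 and MicroG2 by the interaction test of edgeR with adjustment over 6320 genes, out of 0.0791% called under occlusion and 0.0475% in each of the other comparisons. Under occlusion the change in MicroG3 minus that in MicroG2 was −3.77 on the log2 scale for Hba-a1 (adjusted p = 6.32e-12), −2.20 for Hbb-bs (0.00038) and −2.18 for Hba-a2 (0.00106). It was 3.33 for Ccl4 (5.76e-08) and 2.66 for Ccl3 (0.000981). For training it was −5.32 for Hbb-bs (1.09e-11), −7.76 for Hba-a1 (8.62e-07) and −5.91 for Hba-a2 (0.00185). Between training and occlusion it was −4.07 for Ccl4 (2.21e-08), −3.12 for Hbb-bs (0.00105) and −2.67 for Ccl3 (0.00125).

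With the replicate number, which is the sex of the pool, as a block, Ccl4 alone was still called, at 3.39 under occlusion (adjusted p = 0.00034) and −4.08 between training and occlusion (adjusted p = 0.000145). Ccl3 then had adjusted p-values of 0.114 and 0.153, and those of the hemoglobin genes were 0.831 or more.

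All 3 hemoglobin genes had their UMIs in MicroG3 almost wholly in the 3 cells described above. Without these cells 0 genes were called for training, whereas under occlusion Hba-a1 and Hbb-bs were still called, among 5 genes. In MicroG2 itself Hba-a1 changed by 3.46 under occlusion (adjusted p = 0.00659) and Hbb-bs by 2.29 (adjusted p = 0.0145), and the change of Hba-a1 in MicroG3 with all cells was −0.00583 (adjusted p = 1.00). Ccl3 and Ccl4 had theirs mostly in 2 cells of the second occlusion library, and without that library the values under occlusion were −1.005 for Ccl3 and 0.90 for Ccl4 (adjusted p = 0.953).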

How the results depend on the processing

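The ratios of the homeostatic, immediate-early, ribosomal, mitochondrial, lysosomal and complement lists and of Siglech, Malat1, Jun and Fabp7 kept their direction under every alternative. That of Tyrobp to MicroG2 was −0.01 (−0.00681) after thinning and from −0.00562 to 0.0201 when each library was left out. In cells of 1500 UMIs or more the summed ratios to MicroG2 were −0.16 for neurons, −0.10 for oligodendrocytes and −0.17 for astrocytes, against values above 0 over all cells. With 300 UMIs per cell the genes per cell differed by −22.0 from MicroG2 and −21.3 from MicroG1. The difference in the share of microglia under occlusion was 0.649 points with MicroG1 left out of the total. The share of all cells changed by −0.31 to 0.05 (0.0492 without control replicate 2) under occlusion when each library was left out. A chi-square test on pooled cells, which takes cells as replicates, gave 0.491 for training and 0.595 between training and occlusion. That last comparison was 0.76 among nonneuronal cells (adjusted p = 0.0353).

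Replicate numbers mark the sex of the pool. The correlations of the deviations of same-numbered libraries were −0.279, 0.103 and 0.0775 between pairs of groups, and the numbers were not taken as pairs. With a replicate block in edgeR, 2 genes passed for occlusion, S100a5 and mt-Co1 (adjusted p = 0.0206), and 2 between training and occlusion, Dynll1 and S100a5. The change in the share of all cells between training and occlusion was then 0.61 (adjusted p = 0.0274, edgeR). In the interaction 1, 0 and 1 genes, Ccl4 in each case with a call, passed with the block for occlusion, training and training against occlusion.

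Counts of called genes were small and unstable. For occlusion they were 0 with library totals, 0 with DESeq2, 6 without a filter, 3 with at least 10 UMIs per library, 4 without the hemoglobin-rich cells and 6 to 12 when each library was left out. For training they were 4 without a filter, 1 with at least 10 UMIs and 0 to 8 with a library left out. Between training and occlusion they were 0 with DESeq2, 11 without a filter, 4 with at least 10 UMIs, 0 after thinning, 3 without the hemoglobin-rich cells and 1 to 18 with a library left out. A fit with a library left out holds 1 library in a group, so calls in it are no support for a gene. In these fits the log2 fold change of S100a5 under occlusion ranged from −3.12 to −1.76. That of Dynll1 between training and occlusion ranged from 1.12 to 1.795.

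The interaction gave 1 gene in each comparison after thinning, 0 for training without the hemoglobin-rich cells, 1 for training against MicroG1, and 2 to 10, 0 to 6 and 0 to 13 with a library left out. Against MicroG1 the values under occlusion were 0.65 for Hba-a1, 0.32 for Hbb-bs and 1.29 for Hba-a2, and without the hemoglobin-rich cells Hbb-bs was 2.11 between training and occlusion. With a library left out they ranged from −9.25 to 1.49 for Hba-a1, −5.88 to 2.17 for Hbb-bs, −1.005 to 3.17 for Ccl3 and −5.34 to 5.09 for Hba-a2 under occlusion, from −6.60 to 1.39 for Hba-a2 under training, and from −3.96 to 0.30 for Hbb-bs and −3.81 to 0.99 for Ccl3 between training and occlusion. Siglech under occlusion ranged from −0.324 to 0.0245. The cause of these shifts was not tested.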
